A study of Mus musculus with 3 samples.

Results

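Fibroblasts with Col3a1 and Lum are collagen-making stromal cells that were picked from single-cell RNA profiles of mouse cochlea by their own transcripts. A cell was taken as a member where no UMI (a counted, individually tagged transcript) of the blood cell gene Ptprc was seen, where at least 5 UMIs of Col3a1 and at least 1 UMI each of Lum and Dcn were seen, and where Cldn11 was below 2 UMIs, Adipoq plus Lepr were below 2 UMIs and Ibsp was at 0. In all, 156 of 37188 kept cells met the rule. Levels of these 8 genes are therefore fixed by the rule and are given only as a description.

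The series holds 10x Genomics 3′ libraries of C57BL/6J mouse cochlea, 1 library from 6 mice for each of 3 groups. The control group had no noise, the HHL group (hidden hearing loss) had 110 dB for 2 h, and the NIHL group (noise-induced hearing loss) had 115 dB for 4 h with 3 days of exposure, and tissue was collected 6 h after noise ended. The sources used here give neither age nor sex. The libraries can be told apart only by the number at the end of each cell barcode, which no label links to a group, so they are named library 1, library 2 and library 3, no group is assigned to them and nothing is compared by noise exposure.

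Fibroblasts make the fibrous matrix of connective tissue. They secrete fibril-forming collagens, small leucine-rich proteoglycans that bind the fibrils and set their spacing, elastic microfibrils, and the enzymes that crosslink or degrade them. In and around the cochlea such cells lie in the periosteum and bone lining, in the sheaths of vessels and nerves and in the perilymphatic spaces, beside the specialised fibrocytes of the spiral ligament.

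Library 1 held 45 members, library 2 held 34 and library 3 held 77. They made up 0.267% (95% Clopper-Pearson interval 0.194 to 0.356), 0.354% (0.245 to 0.494) and 0.719% (0.568 to 0.898) of the kept cells of libraries 1, 2 and 3. Among kept cells without Ptprc, the shares were 2.03% (1.48 to 2.70), 1.20% (0.829 to 1.67) and 2.42% (1.92 to 3.02). The largest share stood in library 3 by both denominators, while the lowest was in library 1 by the first and in library 2 by the second. The members' depth differed too, with medians of 3654, 5552 and 5479 UMIs and 1697, 2312 and 2357 genes per cell, and a minimum of 5 Col3a1 UMIs asks for a higher concentration of the transcript in a shallower cell. The part of depth in the counts of members was not tested. The summed UMIs of the members were 171623, 210401 and 468080, so counting error is smallest in library 3, and each interval below is a 95% interval that covers counting error alone, not differences between mice or preparations. With 1 library each, no difference between libraries has a replicate check.

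Near the Col3a1 minimum, 21 cells with 3 or 4 UMIs that met all other conditions stood just outside and 30 cells with 5 or 6 UMIs just inside. Their summed Dcn stood at 16616 and 13563 CPM (the gene's UMIs scaled to a common total), their Lum at 2126 and 2147 CPM, their Postn at 2345 and 3932 CPM and their Col1a1 at 1180 and 892 CPM. The 126 members above 6 UMIs had 7344 CPM of Col1a1. The rule thus stops within a run of like cells and not at a gap.

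Postn and Aspn, the markers that the rule did not use, were present in the members but not in all of them. Postn encodes periostin, a matricellular protein of collagen-rich tissue, and was seen in 28 of 45, 24 of 34 and 57 of 77 members of libraries 1, 2 and 3 (62.2%, 70.6% and 74.0%). Thinned to 1000 UMIs per cell, the shares were 46.7%, 64.7% and 62.3%. In Ptprc-positive cells, which should lack the gene, 0.28%, 0.829% and 1.46% had a UMI at median depths of 5798, 6196 and 10014 UMIs. Aspn encodes asporin, a small leucine-rich proteoglycan, and was seen in 18 of 45, 9 of 34 and 28 of 77 members (40.0%, 26.5% and 36.4%, and 24.4%, 17.6% and 23.4% after thinning), against 0.191%, 0.533% and 1.16% of Ptprc-positive cells. The label thus describes the members for Postn in most cells and for Aspn in a minority.

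General fibroblast genes were measured throughout. Each of the 10 genes of the pan-fibroblast list, among them Col1a1, Col1a2, Pdgfra, Fstl1, Mmp2 and Sparc, passed the minimum of 20 summed UMIs used for all gene counts here. Markers of other lineages were mostly low. Those of the periosteal and osteogenic list, of which the rule set Ibsp to 0, were not, and summed to 1259, 1255 and 1213 CPM. Endothelial markers summed to 17.5, 47.5 and 62.0 CPM, epithelial markers to 0, 0 and 2.14 CPM, and lymphoid markers to 52.4, 71.3 and 23.5 CPM, and no gene of these 3 lists passed the minimum. Macrophage markers summed to 309, 152 and 256 CPM, with at least 10 UMIs in 0 of the 156 members. Pericyte and smooth muscle markers summed to 361, 162 and 94.0 CPM, with at least 2 UMIs in 10, 4 and 5 members, and Schwann cell markers to 332, 252 and 224 CPM. Neutrophil markers were seen in every member at 4201, 2567 and 4185 CPM, which are abundant transcripts of the surrounding blood cells. Hemoglobin transcripts reached 163, 22766 and 4155 CPM, and 4259 of the 4790 hemoglobin UMIs of library 2 lay in 1 cell, without which its level was 2642 CPM. The difference from library 1 was not confined to single cells. Hbb-bs was seen in 17.8%, 100% and 100% of members and in 21.8%, 99.7% and 98.8% of Ptprc-positive cells. Free RNA genes (hemoglobin, granule and immunoglobulin transcripts) took a median of 0.502%, 0.583% and 0.657% of a member's UMIs. Doublet calling marked 951, 450 and 506 kept cells, among them 0, 0 and 2 members. Among kept cells 128 barcodes occurred in more than 1 library, and 0 of them belonged to members.

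Among the 15 transcripts with the highest level over all members were Dcn with 14777 CPM, Sparc with 8682 CPM, Col1a2 with 7023 CPM, Col3a1 with 6486 CPM, Col1a1 with 6443 CPM and Mgp with 4857 CPM. Mgp encodes matrix Gla protein, an inhibitor of calcification. The others were Malat1, Gm42418, Fth1, Itm2b and 5 mitochondrial transcripts. A 3′ library gives about the same number of UMIs per transcript whatever its length, so these are levels of transcripts and not of protein.

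The fibril-forming collagens were lowest in library 2. Col1a1 and Col1a2 encode the chains of collagen I. Col1a1 stood at 9754 CPM (9292 to 10233) in library 1, 2771 CPM (2551 to 3005) in library 2 and 6879 CPM (6644 to 7121) in library 3, a ratio of highest to lowest of 3.52 (3.2 to 3.87). Col1a2 stood at 10576, 3579 and 7268 CPM. Both were thus low in library 2 and had their highest level in library 1. Col5a2, a chain of the collagen V that starts fibrils, stood at 798, 257 and 664 CPM, and Col11a1 at 274, 71.3 and 169 CPM. Col3a1, which the rule used, stood at 7179, 3683 and 7492 CPM.

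A gene is called low in a library where its CPM was at most 1/2 of that in each other library, and high where it was at least 2-fold each other library, among the 6364 genes with at least 20 summed UMIs. By that rule 4 of the 7 fibril collagens (Col1a1, Col1a2, Col5a2, Col11a1) were low in library 2, where 4.84% of all genes tested were low. Taking each gene's log2 ratio of 1 library to the other 2 libraries (their geometric mean), the list's median was 0.95, -1.29 and 0.40 in libraries 1, 2 and 3, and the median of all genes was -0.01, 0.01 and 0.04. The list includes Col3a1, which the rule used and which was not called in any library. The lowest Col3a1 level of a member was 1136, 639 and 306 CPM in libraries 1, 2 and 3. The part of the Col3a1 minimum in the levels of the other collagens was not tested. Each of the 4 calls was also made when the member with the most UMIs of the gene was left out of each library. Likewise 3 of 11 other collagens were low in library 2 with and without the highest cells. Col6a3, a chain of the beaded collagen VI, stood at 618, 257 and 609 CPM. Col12a1, which binds along fibrils, stood at 181, 38.0 and 167 CPM, and Col14a1, of the same class, at 454, 190 and 641 CPM. The chaperone of collagen folding Serpinh1 stood at 1410, 561 and 874 CPM, and the crosslinking enzyme Lox at 262, 114 and 464 CPM, the latter low in library 2.

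Small leucine-rich proteoglycans did not share that order as a group, although Aspn, Fmod, Prelp, Omd and Ecm2 had their lowest level in library 2. Dcn (decorin) and Lum (lumican) were chosen by the rule and stood at 10535, 15779 and 15882 CPM and at 2313, 3679 and 2510 CPM. Bgn (biglycan), a close relative of decorin, stood at 1183, 1255 and 1530 CPM, with a range under 1.5-fold. Ogn (osteoglycin) stood at 1474, 1069 and 1030 CPM, and Epyc (epiphycan) at 810, 1511 and 797 CPM. Aspn stood at 1107 CPM (955 to 1276), 433 CPM (348 to 531) and 857 CPM (775 to 945). Fmod (fibromodulin) stood at 105, 42.8 and 207 CPM and Prelp at 128, 28.5 and 87.6 CPM, both low in library 2. Of the 11 proteoglycans tested, 2 were low in library 2, Chad was low in library 1, where 6.98% of all genes were low, and Omd was high in library 3, where 2.66% were high. The median log2 ratios were -0.23, -0.20 and 0.33.

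**Figure D1:**
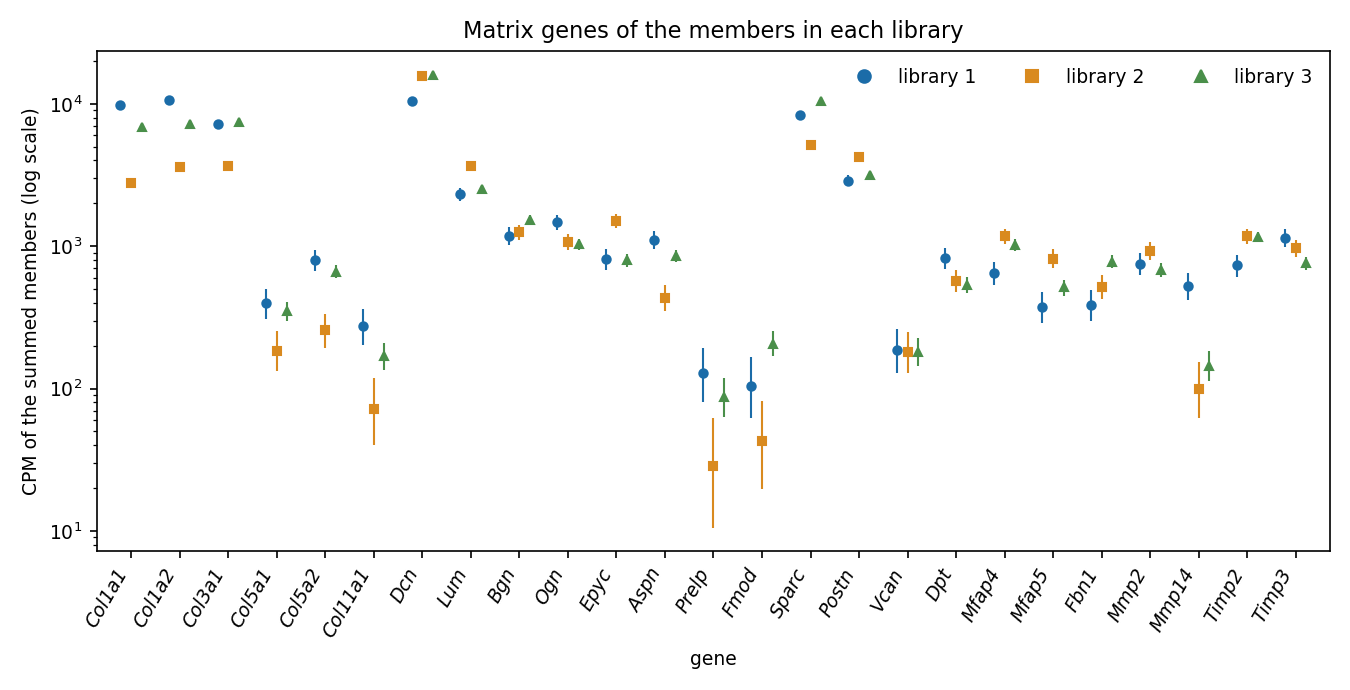
Levels of matrix genes in the summed members of each library, as CPM on a log scale; points are libraries 1 (circle), 2 (square) and 3 (triangle) and bars are 95% Poisson intervals of the count, which cover counting error alone. Collagen chains such as Col1a1 lie lowest in library 2 (2771 CPM against 9754 and 6879), while Dcn, Bgn and Mmp2 do not.

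Elastic fibre genes were close to level. Of 16 tested, Mfap4, a microfibril-associated protein, stood at 647, 1174 and 1019 CPM, Fbn1 (fibrillin) at 385, 518 and 780 CPM, and Dpt (dermatopontin, a binder of decorin and collagen) at 822, 570 and 534 CPM. Fbn2 was an exception at 192, 4.75 and 21.4 CPM. It was called high in library 1, where 2.95% of all genes were high, and low in library 2. Fbln2 was low in library 1, at 46.6 CPM against 128 and 109 CPM, and no other gene of the list was called. The list's medians of -0.14, 0.19 and -0.04 lay near those of all genes.

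Matricellular and protease genes differed gene by gene. Of 13 matricellular genes tested, 3 were high and 2 low in library 1, 2 were low in library 2, and 2 were high and 4 low in library 3, with median log2 ratios of 0.73, 0.03 and -0.14. Of all genes, 2.95%, 2.47% and 2.66% were high and 6.98%, 4.84% and 2.45% low in libraries 1, 2 and 3. Of 13 matrix proteases tested, Mmp3, Mmp14 and Mmp23 were high in library 1, Mmp9 was high and Mmp23 low in library 2, and the median log2 ratios were 0.06, -0.24 and -0.27. Sparc, a collagen-binding glycoprotein, stood at 8390, 5119 and 10391 CPM, and Postn at 2878, 4244 and 3175 CPM, and neither was called. Vcan, a large proteoglycan that binds hyaluronan, stood at 186, 181 and 182 CPM. Mmp2, a gelatinase, stood at 752, 932 and 679 CPM, and the inhibitors Timp2 and Timp3 at 734, 1174 and 1162 CPM and at 1142, 965 and 756 CPM. Mmp14, the membrane-bound activator of Mmp2, stood at 524 CPM (422 to 645), 99.8 CPM (61.8 to 153) and 145 CPM (113 to 184), and was called high in library 1. Mmp14 kept that call without its highest cells, at 423, 88.3 and 129 CPM, and was not called after thinning or in cluster 1 alone, where it stood at 114, 61.7 and 84.6 CPM. Of 9 protease inhibitors 0 were called in any library.

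Of 9 genes of the IGF system 1 was low in library 1 and 1 in library 3. Igf1 stood at 1119, 1416 and 1077 CPM, and the IGF-binding proteins Igfbp4 and Igfbp5 at 3018, 3783 and 3401 CPM and at 2284, 2348 and 2027 CPM. Igfbp6 stood at 29.1, 190 and 241 CPM and was low in library 1. Pdgfra, the receptor that marks many fibroblasts, stood at 519, 898 and 498 CPM. The mesenchymal transcription factors Prrx1 and Twist1 stood at 798, 708 and 523 CPM and at 192, 152 and 169 CPM, and of 15 such factors tested 3 were high and 1 was low in library 1. Of all genes, 2.95% were high and 6.98% low in library 1. Tgfbi, a secreted protein induced by TGF-beta, stood at 251, 80.8 and 70.5 CPM and was high in library 1. The secreted Wnt inhibitor Dkk2 stood at 87.4, 143 and 21.4 CPM and was low in library 3, where 2.45% of all genes were low.

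The members were not of 1 kind. Clustering of the 156 cells on their own variable genes gave 5 clusters, which are numbered and given no cell type name. The genes that define them are listed as a description, since clusters differ in their own genes by construction. Cluster 1 held 79 cells (20, 19 and 40 of libraries 1, 2 and 3) and was led by Sfrp4, Postn, Clu, Cep128, Calcrl, Hbb-bt, Hbb-bs and Ly6a. Hbb-bt and Hbb-bs encode haemoglobin chains of red blood cells. Hbb-bt was seen in 55.7% of the cells of cluster 1 and 53.2% of other members, and Hbb-bs in 79.7% and 72.7%. Of the haemoglobin UMIs, 4259 of 4790 in library 2 lay in 1 cell of cluster 1. In library 3, 1283 of 1945 lay in the 2 called doublets. Sfrp4 is a secreted Wnt inhibitor and Clu a secreted chaperone. Cluster 2 held 28 cells (6, 3 and 19) and was led by Tnn, Hmcn1, Aspn, Ecm1, Col14a1, Fmod, Col12a1 and Alpl. Cluster 3 held 25 cells (10, 7 and 8) and was led by Meis2, Cygb, Cyp1b1, Meis1, Igfbp2, Cpz, Nkd2 and Igf2. Cluster 4 held 8 cells (3, 3 and 2) and was led by Pi16, Cldn1, Lratd1, Svep1, Dner, Prokr1, C1qtnf7 and Phex. Cluster 5 held 16 cells (6, 2 and 8) and was led by Trf, Spp1, Col2a1, Col11a2, Col9a2 and Apod. Cluster 1 held both called doublets.

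Collagen I and periostin were found at their highest levels in different members. Col1a1 summed to 1094 CPM in cluster 1, 19060 CPM in cluster 2, 13820 CPM in cluster 3, 2399 CPM in cluster 4 and 361 CPM in cluster 5. Postn summed to 5856, 1064, 315, 677 and 916 CPM in the same order. Aspn was seen in 28 of the 28 cells of cluster 2, at 3563 CPM, and at 50.5 CPM in cluster 1. Cluster 1 was thus rich in Postn and poor in collagen I, and cluster 2 the reverse. Dcn at 18212 CPM in cluster 1 and 10935 CPM in cluster 2, and Lum at 2221 and 3946 CPM, were high in both. Gpx3, a secreted glutathione peroxidase, stood at 16.1 CPM in cluster 1 and 2786 CPM in cluster 2. Epyc stood at 1438 and 155 CPM, and Fmod at 0 and 634 CPM. Among single members of library 3, Col1a1 ran from 0 to 48660 CPM with a median of 1663 CPM, and Postn from 0 to 15583 CPM with a median of 1860 CPM.

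**Figure D2:**
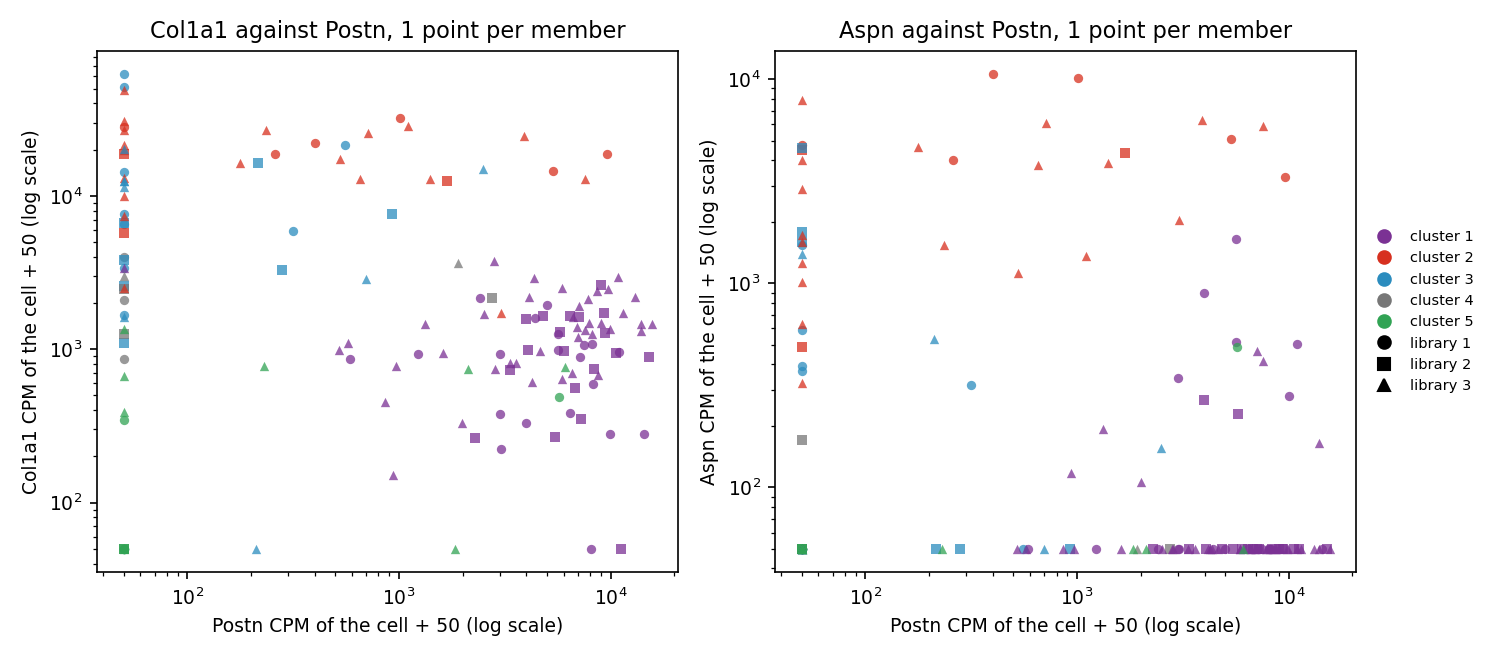
Each point is 1 member, with its Postn level on the horizontal axis and its Col1a1 (left) or Aspn (right) level on the vertical axis, as CPM + 50 on log scales; colour gives the cluster and shape the library. Cells of cluster 1 gather at high Postn and low Col1a1 (5856 and 1094 CPM in sum), and cells of cluster 2 at high Col1a1 and Aspn (19060 and 3563 CPM).

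Lists of fibroblast kinds cut across the clusters. At least 2 UMIs of the adventitial progenitor list (Pi16, Dpp4, Cd34, Ly6a and others) were found in 27, 27 and 60 members of libraries 1, 2 and 3, and 70 of these 114 cells lay in cluster 1. Most of that list's level came from Ly6a, with 723, 1868 and 1624 CPM of its 1154, 2671 and 2104 CPM. Pi16 was seen in only 3, 3 and 1 cells of cluster 1, but in 7 of the 8 cells of cluster 4. At least 2 UMIs of the tendon and ligament list were found in 8, 12 and 28 members, 21 of them in cluster 2. The transcripts behind that list were mainly Fmod, Chad and Comp. Tnmd, a defining tendon gene, had 2, 4 and 14 UMIs, and Thbs4 was at 0. At least 2 UMIs of the periosteal and osteogenic list were found in 25, 19 and 52 members. At least 10 were found in 30 members, 13 of them in cluster 2 and 11 in cluster 5. At least 10 UMIs of the cartilage list were found in 7 members, 7 of them in cluster 5. At least 10 UMIs of the cochlear fibrocyte list were found in 8 members, in clusters 3 and 5. Coch, the leading gene of that list, stood at 1428, 447 and 568 CPM, but 75.5% of the library 1 UMIs lay in 1 cell, and without it the level was 357 CPM.

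Within cluster 1 the low collagen I of library 2 was not seen. There Col1a1 stood at 773, 965 and 1260 CPM and Col1a2 at 1688, 1683 and 1687 CPM in libraries 1, 2 and 3. Within cluster 2 Col1a1 stood at 23183, 14010 and 18733 CPM, over 6, 3 and 19 cells. Within cluster 3 it stood at 23181, 6766 and 10236 CPM, over 10, 7 and 8 cells. Library 2 was thus lowest within clusters 2 and 3, of which it had 3 and 7 cells, and not within cluster 1 for Col1a1. The median log2 ratio of the fibril collagens in library 2 was -0.03 in cluster 1 alone, against -1.29 over all members. The part of the makeup of the members in the summed levels was not tested beyond these values.

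Library 1 members carried more endoplasmic reticulum (ER) chaperone RNA. Hspa5 encodes BiP, the main chaperone of the ER and a target of the unfolded protein response, and stood at 2057 CPM (1848 to 2283), 471 CPM (382 to 573) and 776 CPM (698 to 860). The ratio of highest to lowest was 4.37 (3.49 to 5.52). A UMI of Hspa5 was seen in 86.7%, 73.5% and 94.8% of members (55.6%, 20.6% and 58.4% after thinning), against 75.2%, 63.4% and 85.6% of Ptprc-positive cells. Library 1 was thus above the others in summed level but not in the share of cells. A single member of library 1 held 35.4% of its Hspa5 UMIs, and without the highest cell of each library Hspa5 stood at 1374, 352 and 743 CPM, which is no longer 2-fold above library 3. Hsp90b1, the ER form of the HSP90 chaperone, stood at 1480, 480 and 643 CPM, and at 1103, 418 and 626 CPM without the highest cells.

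Of 13 ER stress genes tested, 5 were high in library 1 (Hspa5, Hsp90b1, Atf4, Creld2, Pdia4), where 2.95% of all genes were high. Only Atf4 of these 5, the transcription factor of the integrated stress response, kept the call without the highest cells, with 495, 219 and 203 CPM before and 458, 206 and 193 CPM after. The list's median log2 ratios were 0.75, -0.50 and -0.28 over all members. Within cluster 1 Hspa5 stood at 4121, 556 and 710 CPM, and at 2540, 364 and 663 CPM without the highest cells, and the median of the list in library 1 was 1.39. Within cluster 2 Hspa5 stood at 726, 383 and 578 CPM. The difference between libraries was thus larger in cluster 1 than in cluster 2, where library 2 gave 5 UMIs. Library 1 members also had the lowest depth and the highest median mitochondrial share (6.20%, against 4.25% and 4.00%), and the part of either in these levels was not tested. Other cells of the same libraries gave Hspa5 levels of 688, 496 and 413 CPM in Cldn11 and Itih5 stroma, 1481, 550 and 819 CPM in Coch and Otor fibrocytes, and 561, 317 and 855 CPM in Ptprc-positive cells. Library 1 was highest in both of these stromal sets but not in the blood cells.

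ER chaperone promoters carry a known sequence, the ER stress response element, and the promoters of the chaperones named here were searched for it as CCAAT followed after any 9 bases by CCACG, on both strands, within 250 bases before the gene start. The sequences are those of RefSeq on GRCm38.p6, an earlier build than the GRCm39 of the deposited counts, and their positions are used for nothing else. The element was found in 5 of 14 list genes with a promoter entry (Calr, Creld2, Hsp90b1, Hspa5, Pdia6) and in 37 of all 32851 promoters (0.113%). A match is a description of the letters, not evidence of a bound site. The stretches of the 3 most abundant chaperones are shown, with the fixed letters of each match in capitals, read 5′ to 3′ on the gene's strand. The Hspa5 match lies 65 to 47 bases before the start, at chr2:34772010-34772058 (+ strand). That of Calr lies at chr8:84847060-84847108 (- strand), and the stretch of Hsp90b1, with 2 matches in opposite orientation, at chr10:86705518-86705671 (- strand).
Hspa5: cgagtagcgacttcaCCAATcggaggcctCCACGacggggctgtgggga
Calr: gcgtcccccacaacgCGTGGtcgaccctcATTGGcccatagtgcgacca
Hsp90b1: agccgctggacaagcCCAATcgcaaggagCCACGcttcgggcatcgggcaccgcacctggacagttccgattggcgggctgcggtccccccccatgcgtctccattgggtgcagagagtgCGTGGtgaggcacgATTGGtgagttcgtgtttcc

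Of the CCN matricellular genes, Ccn1, Ccn2 and Ccn5 were highest in library 1 as well, although Ccn5 was not called high there. Ccn1 (Cyr61) and Ccn2 (CTGF) encode secreted proteins that are induced by mechanical load and TGF-beta. Ccn1 stood at 833 CPM (702 to 982), 371 CPM (293 to 463) and 158 CPM (124 to 198), and was seen in 33 of 45, 14 of 34 and 26 of 77 members (48.9%, 20.6% and 9.09% after thinning). In Ptprc-positive cells 2.01%, 4.97% and 6.49% had a UMI of Ccn1. Ccn2 stood at 950 CPM (810 to 1107), 242 CPM (180 to 319) and 222 CPM (182 to 269). Both were called high in library 1 with and without the highest cells, where Ccn1 stood at 709, 233 and 143 CPM and Ccn2 at 790, 204 and 159 CPM. Within cluster 1 Ccn1 stood at 1545, 301 and 50.7 CPM and Ccn2 at 1932, 154 and 33.8 CPM. Cluster 3 did not have that order, with Ccn1 at 375, 691 and 232 CPM and Ccn2 at 281, 489 and 417 CPM. In cluster 2 Ccn1 stood at 267 and 211 CPM and Ccn2 at 267 and 516 CPM in libraries 1 and 3, and both had 0 UMIs in the 3 cells of library 2. Ccn3 (NOV) was low in library 2, at 93.2, 9.51 and 135 CPM, and at 53.8, 4.91 and 21.7 CPM without the highest cells. Ccn4, at 17.5, 14.3 and 68.4 CPM, was called high in library 3, and Ccn5, at 117, 85.6 and 17.1 CPM, was called low there. In Coch and Otor fibrocytes the order differed, with 383, 1232 and 707 CPM of Ccn1, and in Cldn11 and Itih5 stroma the levels were 125, 126 and 109 CPM.

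Contractile genes, which accompany CCN genes in activated fibroblasts, summed to 2313, 1383 and 1220 CPM. Tagln and Acta2 among them were lower in level than Ccn1 and Ccn2 in each library. Tagln, an actin-binding protein, stood at 221, 85.6 and 42.7 CPM, and Acta2 (smooth muscle actin) at 128, 42.8 and 36.3 CPM. Tagln was seen in 11, 3 and 10 members and Acta2 in 6, 4 and 7, with 54.5% of the library 1 UMIs of Acta2 in 1 cell. In library 1, where 2.95% of all genes were high, these 2 of 7 contractile genes tested were high with and without the highest cells. They are also markers of pericytes and smooth muscle, whose list summed to 361, 162 and 94.0 CPM, and 3 of the 8 genes of that list were at 0. The part of such cells in these levels was not tested.

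Metallothionein and antioxidant genes were lowest in library 1. Mt1, a zinc-binding protein, stood at 198 CPM (137 to 277), 760 CPM (647 to 888) and 645 CPM (574 to 722), and Mt2 at 64.1, 176 and 218 CPM. Sod2, the mitochondrial superoxide dismutase, stood at 23.3, 71.3 and 89.7 CPM, the first from 4 of 45 members. Of 11 genes tested, 4 were low in library 1 (Mt1, Mt2, Sod2, Gclc), where 6.98% of all genes were low. Of these 4, Mt1, Mt2 and Sod2 kept the call without the highest cells. The list's median log2 ratios were -0.83, 0.35 and 0.73. Within cluster 1 Mt1 stood at 243, 1212 and 465 CPM, and within cluster 2 at 38.2, 153 and 1258 CPM. In cluster 3 library 2 was lowest, with 258, 28.8 and 695 CPM. Of the 160 Mt1 UMIs of library 2, 157 lay in cluster 1. Library 1 was not lowest for Mt1 in Cldn11 and Itih5 stroma, at 908, 830 and 368 CPM, or in Coch and Otor fibrocytes, at 1404, 1017 and 537 CPM. Levels in the further set, Cxcl12-abundant stroma, are not shown here. A UMI of Mt1 was also seen in 26.7%, 35.8% and 47.7% of Ptprc-positive cells, against 40.0%, 47.1% and 54.5% of members. The part of free RNA in these levels was not tested.

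**Figure D3:**
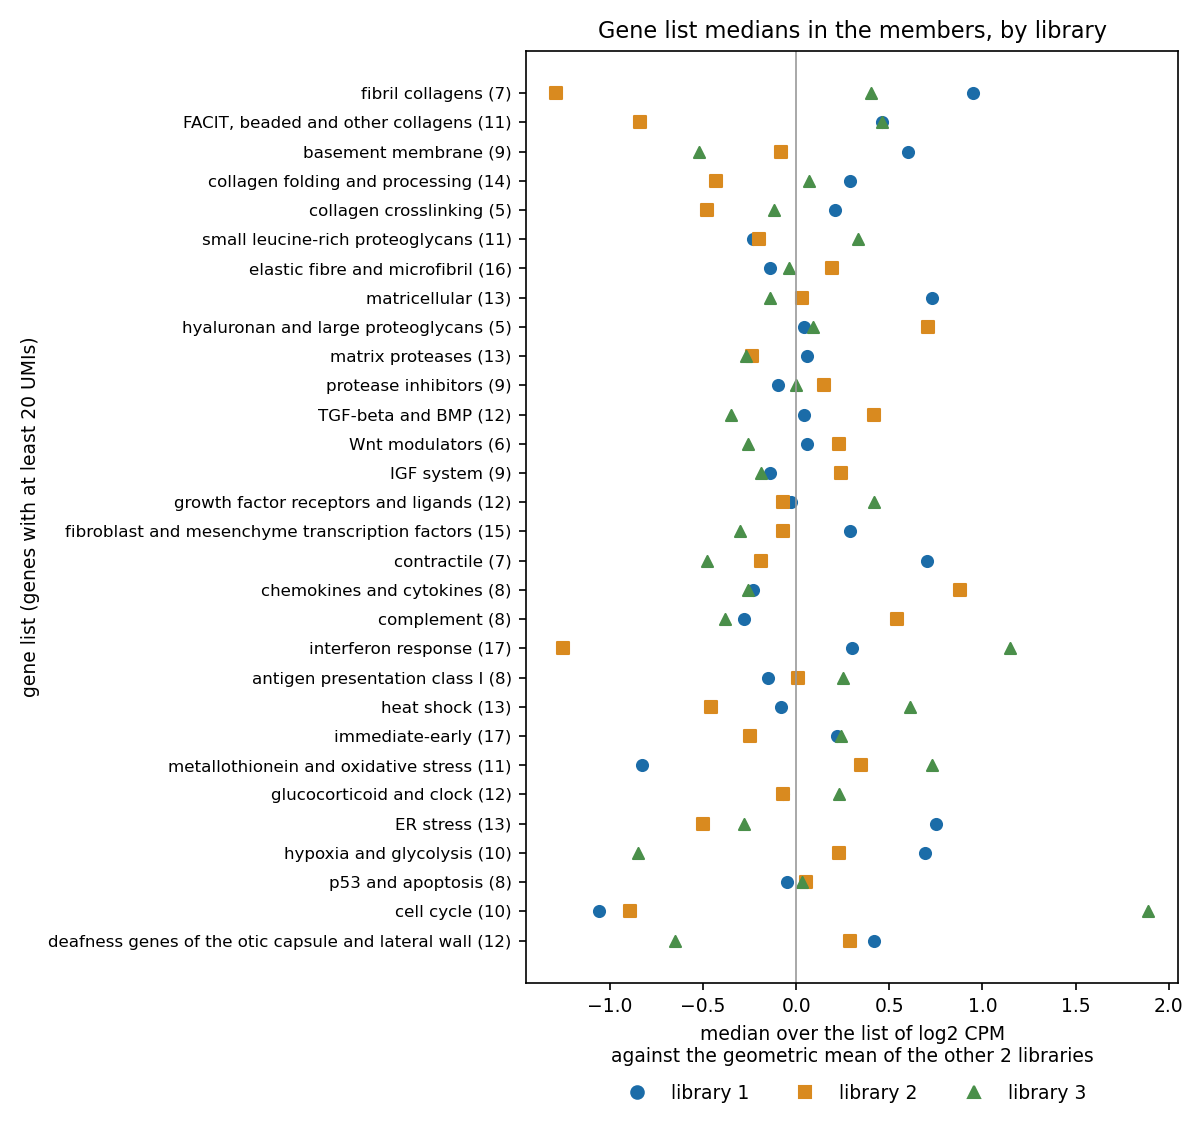
Median over a list of the log2 ratio of 1 library to the other 2 (their geometric mean of CPM), for the tested genes of each list (number in brackets), with circles for library 1, squares for library 2 and triangles for library 3. Fibril collagens (-1.29) and the interferon response (-1.25) lie lowest in library 2, ER stress highest in library 1 (0.75) and metallothionein and oxidative stress lowest there (-0.83).

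Interferon-stimulated genes were lowest in library 2 by their summed level, at 1940, 675 and 2006 CPM, but not by cell. They made up a median of 0.0456%, 0.0510% and 0.122% of a member's UMIs, and 53.3%, 73.5% and 85.7% of members had at least 2 of their UMIs, both lowest in library 1. The medians of libraries 1 and 2 lay close together. A share of cells with at least 2 UMIs also depends on depth, which was lowest in library 1 (medians of 3654, 5552 and 5479 UMIs). The part of depth in this share was not tested. Isg15, a ubiquitin-like protein, stood at 122 CPM (75.7 to 187), 19.0 CPM (5.18 to 48.7) and 182 CPM (145 to 225), from 7 of 45, 4 of 34 and 26 of 77 members. Bst2 (tetherin), which holds budding virus at the membrane, stood at 175 CPM (118 to 250), 119 CPM (76.9 to 175) and 380 CPM (326 to 440), from 15, 10 and 56 members. Bst2 was called high in library 3, and so was Rtp4 at 17.5, 14.3 and 66.2 CPM. Of 17 genes tested, 7 were low in library 2 (Isg15, Ifit1, Ifit3, Ifit3b, Rsad2, Gbp3, Ifi27l2a), where 4.84% of all genes were low. In library 1, where 2.95% of all genes were high and 6.98% low, Ifit2 and Rsad2 were high and Xaf1 was low. Without the highest cells Ifit3 lost the low call in library 2, at 53.4, 29.4 and 99.8 CPM, and the other 6 kept it, while Ifit2 and Rsad2 lost the high call in library 1. The median log2 ratios were 0.30, -1.25 and 1.15.

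The interferon genes rested on few cells in libraries 1 and 2. Rsad2 (viperin) stood at 484, 28.5 and 72.6 CPM, but 81.9% of the library 1 UMIs lay in 1 cell, and without it the level was 89.4 CPM. Ifit1 had 36 UMIs in 3 members of library 1, 1 UMI in library 2 and 64 UMIs in 19 members of library 3. Within cluster 1 Isg15 stood at 258, 23.2 and 254 CPM and Bst2 at 272, 69.5 and 436 CPM, and the median of the list was -2.02 in library 2 and 1.06 in library 3. Blood cells of the same libraries also had their highest Isg15 and Bst2 in library 3, with Isg15 at 32.7, 46.3 and 179 CPM and Bst2 at 94.5, 98.2 and 265 CPM in Ptprc-positive cells, of which 63.2% in library 3 had a UMI of Isg15. Cldn11 and Itih5 stroma, with Bst2 at 159, 161 and 145 CPM, and Coch and Otor fibrocytes, at 124, 308 and 207 CPM, did not have that order. Levels in Cxcl12-abundant stroma are not shown here. The part of free RNA from blood cells in the members' interferon levels was not tested.

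Interferon-stimulated promoters carry the interferon-stimulated response element, searched for as GAAA followed after any 2 bases by GAAAC, on both strands and within 250 bases before the start. It was found in 9 of 15 list genes with a promoter entry (Bst2, Gbp2, Gbp3, Ifit1, Ifit3, Ifit3b, Isg15, Oas1a, Stat2) and in 225 of 32851 promoters (0.685%). The stretches of 3 genes described above are shown from the same RefSeq table, with the fixed letters in capitals. Isg15 holds 2 overlapping matches at chr4:156200865-156200911 (- strand), Ifit1 holds 2 at chr19:34640769-34640828 (+ strand) and Bst2 holds 1 at chr8:71537577-71537617 (- strand).
Isg15: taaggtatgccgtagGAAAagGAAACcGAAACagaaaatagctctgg
Ifit1: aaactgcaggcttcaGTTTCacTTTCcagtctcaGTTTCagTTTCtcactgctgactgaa
Bst2: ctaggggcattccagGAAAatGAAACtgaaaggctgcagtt

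**Figure D4:**
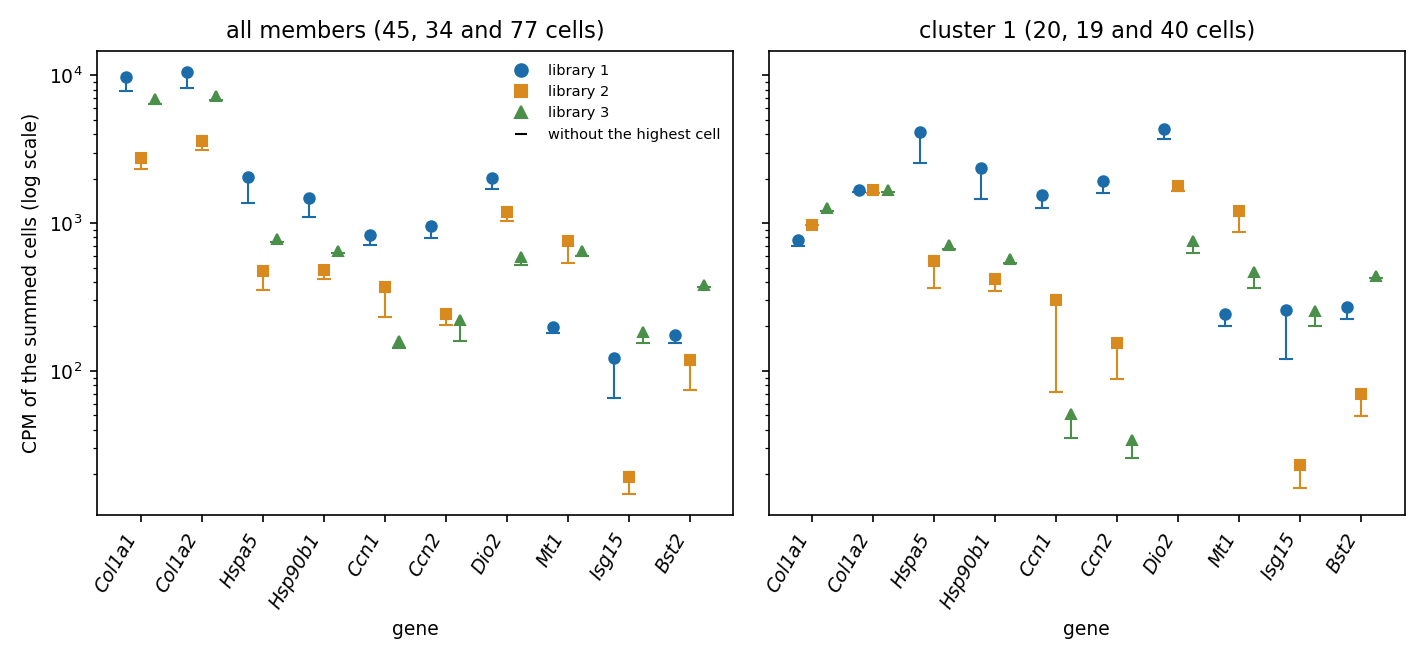
CPM of 10 genes in the summed members of each library (left) and in cluster 1 alone (right), on a log scale; the bar under a point ends at the level without the member that holds the most UMIs of the gene in that library. Col1a1 and Col1a2 are at most 1/2 of the other libraries in library 2 on the left only, while Ccn1 and Ccn2 are highest in library 1 and Bst2 in library 3 on both sides.

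Heat shock and immediate-early genes, which rise when tissue is dissociated, had few calls. Of 13 heat shock genes 0 were called in any library, but 11 had a log2 ratio above 0 in library 3, with median log2 ratios of -0.08, -0.46 and 0.61 and summed levels of 3834, 3660 and 5693 CPM. Fos stood at 880, 1240 and 1895 CPM and Egr1 at 1771, 1378 and 1342 CPM. Of 17 immediate-early genes tested Klf2 was low in library 2 and Atf3 was high in library 3, and the median log2 ratios were 0.22, -0.25 and 0.24. Cell cycle genes were called high in library 3 for 6 of 10, where 2.66% of all genes were high. But 279 of the 418 cell cycle UMIs there lay in the 2 called doublets, and the list's sum fell from 893 to 330 CPM without these cells.

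The secreted carrier genes Apod, Ptgds and Trf were called low in library 3. Apod (apolipoprotein D) stood at 4516, 6611 and 946 CPM, Ptgds (prostaglandin D synthase) at 1684, 1212 and 25.6 CPM and Trf (transferrin) at 833, 528 and 53.4 CPM. Apod was seen in 24 of 45, 21 of 34 and 37 of 77 members. Its level was 23322 CPM in cluster 5 and 142 CPM in cluster 1, where library 3 was not low, at 114, 116 and 165 CPM. In members with at least 10 Col3a1 UMIs the log2 ratio of library 3 was 0.93 for Apod and 1.11 for Trf. Ptgds was seen in 4 of 45 members of library 1, and its level was 655, 522 and 19.4 CPM without the highest cells. The connexin genes Gjb2 and Gjb6, which couple cochlear fibrocytes, stood at 52.4, 57.0 and 4.27 CPM and at 93.2, 61.8 and 2.14 CPM. A finer clustering (resolution 1.0) held a group of 7 cells of cluster 5 (4, 2 and 1 of libraries 1, 2 and 3), led by Trf and Ptgds. Gjb6 was seen in 7 of these cells and Gjb2 in 6, against 1.34% and 2.01% of other members. The part of these cells in the low levels of library 3 was not tested. Of 12 deafness genes of the otic capsule and lateral wall tested, 3 were low in library 3, where 2.45% of all genes were low. In library 1, where 2.95% of all genes were high, 2 of the deafness genes were high. Coch, 1 of these 2, stood at 357, 190 and 379 CPM without the highest cells, so that library 1 was no longer highest. In library 2, where 2.47% of all genes were high, the genes called high included Hbb-bs at 69.9, 11863 and 1880 CPM and Dapl1 at 0, 328 and 40.6 CPM. The Hbb-bs call was lost without the highest cells, at 60.3, 1109 and 1291 CPM, and 91.1% of its library 2 UMIs lay in 1 cell, and Dapl1 then stood at 0, 216 and 34.6 CPM.

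The members were set beside 3 other stromal sets of the same libraries that passed the same filters. Cldn11 and Itih5 stroma numbered 75, 73 and 68 cells, Coch and Otor fibrocytes 65, 131 and 343 cells and Cxcl12-abundant stroma 15, 44 and 25 cells. Both sides were chosen by genes, so these contrasts are a description with no test. The fibril collagens counted below include Col3a1, and the small leucine-rich proteoglycans include Dcn and Lum. The rule required these genes of the members and not of the other sets, so those counts are in part fixed by the rule. A gene is counted as higher or lower where it was at least 2-fold apart in each of the 3 libraries, with a count of 0 set to 3 counts.

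Against Cldn11 and Itih5 stroma, 3.49% of 10340 genes were higher in the members and 2.91% were lower. Each of the 7 fibril collagens was higher, as were 8 of 12 small leucine-rich proteoglycans, 8 of 15 matricellular genes, 8 of 15 matrix proteases and 7 of 16 elastic fibre genes. Dpt stood at 822, 570 and 534 CPM in the members and at 7.80, 12.0 and 12.4 CPM in these cells. Col1a1 stood at 122, 82.7 and 107 CPM there, at least 33.5-fold lower in each library. Crispld2 and Mfap4 were at least 31.9-fold and 23.5-fold higher in the members. Lower in the members were Ifitm1, an interferon-inducible membrane protein, with 2373, 2786 and 2540 CPM in these cells and 23.3, 9.51 and 64.1 CPM in the members, and Emcn, Cavin2, Cxadr and the chemokine Ccl11. Ccl11 had 0, 0 and 1 UMI in the members and 442, 858 and 752 CPM in these cells.

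Against Coch and Otor fibrocytes, 3.84% of 11291 genes were higher and 2.71% were lower. Of the fibril collagens 5 of 7 were higher, and of the elastic fibre genes 12 of 16 and of the matrix proteases 10 of 14. Postn had 0, 0 and 9 UMIs in the fibrocytes, and Epyc likewise 0, 0 and 9, against 810, 1511 and 797 CPM of Epyc in the members. Col6a3, Col6a1 and Mia were among the 10 genes with the greatest difference, with Mia at 379, 1245 and 630 CPM in the members and 5.90, 1.04 and 3.16 CPM in the fibrocytes. Lower in the members were Otor with 0, 0 and 1 UMI, Moxd1 with 11.7, 0 and 6.41 CPM against 581, 825 and 587 CPM, the prostaglandin synthase Ptgs2, the carbonic anhydrase Car14 and Cntn1. Ptgs2 stood at 11.7, 4.75 and 2.14 CPM in the members and at 248, 263 and 107 CPM in the fibrocytes.

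Against Cxcl12-abundant stroma, 2.28% of 8541 genes were higher and 3.16% were lower. Of the fibril collagens 5 of 7 were higher, of the FACIT, beaded and other collagens 7 of 11 and of the small leucine-rich proteoglycans 6 of 11. Angptl1, a secreted angiopoietin-like protein, stood at 239, 566 and 521 CPM in the members and at 19.5, 46.3 and 6.22 CPM in these cells. Lower in the members were Kitl, the ligand that supports blood-forming cells, with 11.7, 4.75 and 10.7 CPM against 360, 154 and 218 CPM, and Fst (follistatin), with 23.3, 19.0 and 23.5 CPM against 311, 531 and 865 CPM. Of 17 immediate-early genes 6 were lower in the members in each library, and of 12 chemokines and cytokines 4 were lower. Of the interferon response genes 0 were 2-fold apart in each library against any of the 3 sets, and the same held for the heat shock genes. Against all 3 sets Col1a1, Postn and Aspn were higher in each library.

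**Figure D5:**
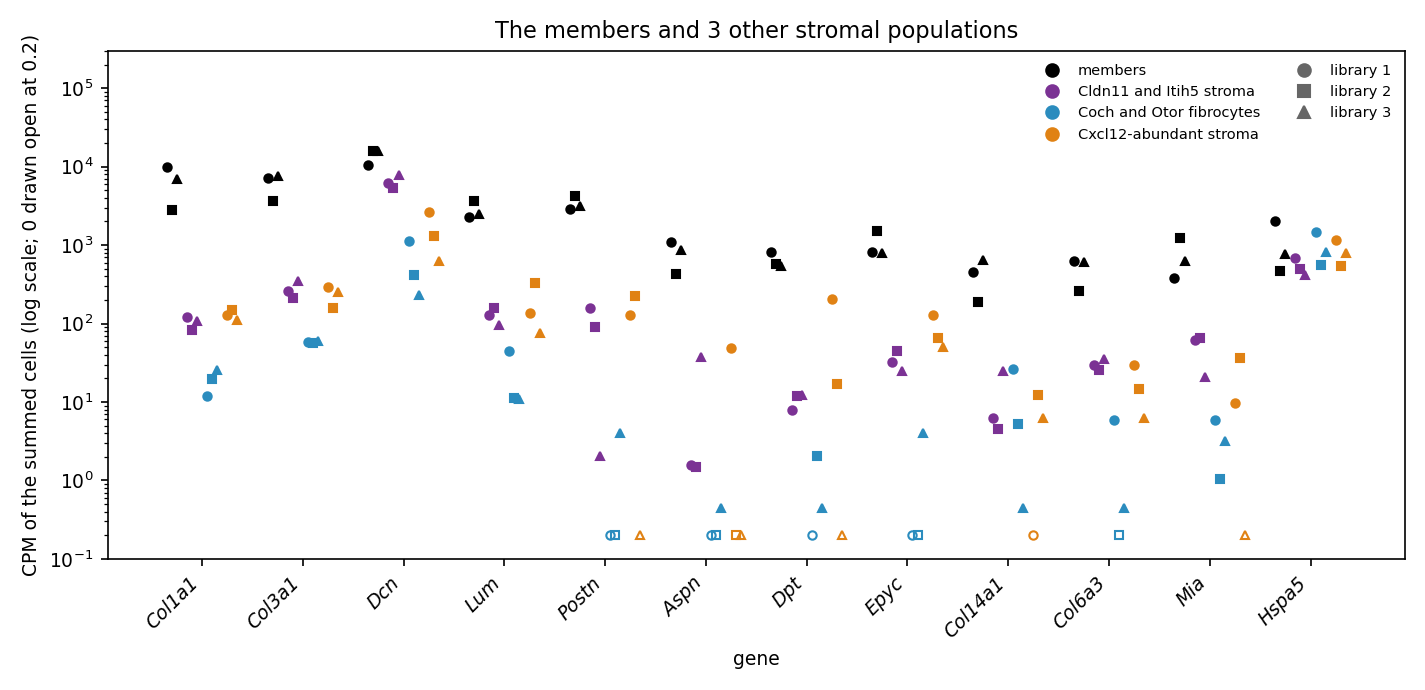
CPM of 12 genes in the members (black) and in the 3 other stromal sets (colours), with shape giving the library; the axis is a log scale and a level of 0 is drawn as an open symbol at 0.2. Col1a1, Postn, Aspn, Dpt and Epyc of the members lie above every other set in each library, while Hspa5 overlaps.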

How the data were processed

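The authors deposited UMI counts as 1 matrix of 39092 barcodes and 32285 genes, made with Cell Ranger 7.1.0, per the file headers. The submitters' processing notes name the build GRCm39, and the labels' protocols describe 10x 3′ libraries. The deposited barcode and gene name files are other data that name the columns and rows of the matrix. How cells were called and libraries pooled is not given in the sources used here. Barcodes with at least 500 UMIs, 200 genes and at most 20% mitochondrial UMIs were kept. In each library scrublet (scanpy 1.11.5, expected rate 6%) called doublets, which were left in. Raw counts were summed per library and given as CPM with exact Poisson 95% intervals, and shares with Clopper-Pearson intervals. Each library is 1 sample of unknown group and cells are not replicates, so no test was run and no p-value is given.

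Members were clustered from 1500 variable genes, 15 principal components and 15 neighbours at Leiden resolution 0.5 (python-igraph 0.11.9). TMM factors (edgeR 4.0.16, R 4.3.3) served as an alternative scaling. Other tools were matplotlib 3.10.9, scikit-learn 1.9.0, anndata 0.12.19, pandas 2.3.3, scipy 1.17.1, numpy 2.4.6 and Python 3.11.15. The members, the gene lists and the call rules were chosen with earlier results of these data known. Named are the 15 genes of highest level, the 20 of largest ratio between libraries (at least 50 CPM in 1 library and 50 UMIs), the 10 of greatest difference in each direction from each other stromal set, up to 8 genes of each list, the markers, and up to 8 leading genes of a cluster. Leaving out the highest cell of a gene, and cluster 1 alone, were alternatives chosen after seeing the data. A gene of the interferon response list is not reported here.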

Additional observations from a re-analysis of the deposited data

How the results depend on the processing

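No paired analysis was possible because each library is 1 sample of unknown group. The medians of the fibril collagens, interferon response, ER stress and metallothionein lists named in the report moved by less than 1.5-fold under each alternative run for them other than cluster 1 alone. There they became -0.03 for fibril collagens in library 2, -2.02 for the interferon response in library 2 and 1.39 for ER stress in library 1. The list medians were not computed with the highest cells left out, so their dependence on single cells is not known. TMM factors of 0.997, 1 and 1 changed 0 of the 49 named genes. Calls of these were lost with the sign kept for 16 in cluster 1 alone, 11 after thinning, 10 with the highest cells left out, 6 with the mean of the cells' CPM and 4 with at least 10 Col3a1 UMIs. Calls were also lost with a change of sign for a further 3 in cluster 1 alone and a further 4 with at least 10 Col3a1 UMIs. Counts of called genes moved with the fold, the filter and the depth. Genes high and low were 35 and 152 in library 1, 36 and 108 in library 2 and 51 and 43 in library 3 at 3-fold. They were 40 and 124, 35 and 73, and 38 and 33 with at least 50 UMIs, where 2949 genes were tested, and 32 and 83, 38 and 89, and 32 and 39 after thinning, with 1335 genes tested. With no filter they were 1545 and 755, 1186 and 746, and 334 and 2992, and high calls made up 67.2%, 61.4% and 10.0% of the calls, against 29.7%, 33.8% and 52.0%. Genes high in library 3 were 91 with at least 10 Col3a1 UMIs, 103 without called doublets and 102 without cells of at least 1% free RNA. High calls then made up 41.6% in library 3 without cells of at least 1% free RNA, and 65.1% with the highest cells left out.

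With the highest cell of each gene left out, 144 of 188 high and 333 of 444 low calls in library 1 were also made, 127 of 157 and 248 of 308 in library 2, and 118 of 169 and 115 of 156 in library 3. At 3-fold, 194 genes were higher and 135 lower than in Cldn11 and Itih5 stroma, 246 and 160 than in Coch and Otor fibrocytes, and 91 and 133 than in Cxcl12-abundant stroma. With at least 10 Col3a1 UMIs the members numbered 28, 19 and 47. The share with Postn in library 3 was 62.3% after thinning, and that with Aspn was 24.4% in library 1 and 23.4% in library 3 after thinning and 51.1% in library 3 with at least 10 Col3a1 UMIs. A resolution of 1.0 gave 10 clusters, of which 1 of 14 cells came from library 1 alone and was led by Ccn2 and Ccn1, so it may be that library and not a state. At least 3 UMIs of the tendon list were found in 5 members of library 1. Log2 ratios that changed sign were 0.10 for Col5a2 in library 2 in cluster 1, 0.93 for Apod, 1.11 for Trf, 0.57 for Sparcl1 and 1.02 for Spp1 in library 3 with at least 10 Col3a1 UMIs, and 0.52 for Apod and 0.74 for Spp1 in library 3 in cluster 1. The causes were not tested. With 34 to 77 cells a library, a gene under about 20 summed UMIs could not be compared.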

Other observations

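A finer division of the members at resolution 1.0 set library 1 apart. A cluster of 14 cells, led by Ccn2, Ccn1, Hspa5, Dio2, Otud1 and Nedd9, came from library 1 alone, and a cluster of 29 cells led by Crym, Scd1, Aldh3a1, Tmem159, Calcrl and Fzd10 had 0, 13 and 16 cells of libraries 1, 2 and 3. Both were parts of the Postn-rich cluster 1, and cluster 2 stayed whole with 28 cells. For these clusters a library and a cell state cannot be told apart. A small cluster of 7 cells (2, 0 and 5), also part of cluster 1, was led by Rsad2 and Ifit1. Dio2, which encodes the deiodinase that activates thyroid hormone, stood at 2016, 1188 and 590 CPM over all members and at 4364, 1791 and 757 CPM in cluster 1, of which it is a leading gene.

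Further genes with a large ratio between libraries were only in part carried by few cells. Cilp was seen in 8 of 77 members of library 3, but Blvrb in 36 of 77 there and Kpna4 in 16 of 45 members of library 1. These genes kept their high calls, in the libraries just given, without the highest cells. Hist1h1b, Hist1h4d and Top2a, genes of dividing cells, stood at 489, 126 and 137 CPM in library 3 and at 0, 5.83 and 11.7 CPM in library 1, and the cells with at least 10 UMIs of cell cycle genes were the 2 called doublets. Cilp stood at 5.83, 4.75 and 105 CPM, Tnxb at 5.83, 28.5 and 111 CPM and Cemip at 105, 157 and 6.41 CPM. Gsta3, a glutathione transferase, stood at 0, 238 and 70.5 CPM. The haemoglobin genes Hbb-bt, Hba-a1 and Hba-a2 stood at 11.7, 3826 and 861 CPM, at 23.3, 3793 and 949 CPM and at 58.3, 3284 and 466 CPM. Between 84.1% and 89.3% of their library 2 UMIs lay in 1 cell, and without the highest cells their library 2 levels were 428, 557 and 547 CPM. Of other genes found in red blood cells, Car2 stood at 0, 76.0 and 333 CPM and Blvrb at 23.3, 95.1 and 297 CPM. In Ptprc-positive cells Blvrb stood at 30.5, 267 and 261 CPM and was seen in 13.8%, 33.4% and 48.1%. The part of free RNA in the levels of red blood cell genes was not tested. Kpna4, a nuclear import factor, stood at 128, 9.51 and 55.5 CPM.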
